A study of Mus musculus with 2 samples.

Results

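The genes described here are the odorant receptor genes that surround the mouse beta-globin genes, taken as every protein-coding gene with a symbol of Olfr and a number and a transcription start site (TSS) between positions 102000000 and 109000000 of chromosome 7 (mm10). This rule gave 188 of the 21853 protein-coding genes. The outermost were Olfr543, with a TSS at 102481679, and Olfr519, with a TSS at 108894420. The nearest Olfr genes of the chromosome beyond the limits were Olfr521, 2.24 Mb below, and Olfr522, 31.2 Mb above, and neither had a promoter region in both libraries. Of the 188 genes, 72 lay below the globin interval (chr7:103780000-103900000), 113 above it and 3 inside it. Their strands were mixed, with 90 on the plus and 98 on the minus strand, and neighbouring start sites had a median spacing of 17.9 kb. Another 904 Olfr genes elsewhere in the genome, 67 neighbouring genes of other kinds and the 5 beta-globin genes served for comparison, and 8 genes of the interval with other Olfr symbols (such as Olfr548-ps1) fell outside the rule.

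The study is a single group of 2 ATAC-seq libraries, in which a transposase tags open DNA, from megakaryocyte-erythroid progenitors (MEP), the marrow cells that make red cells and platelets. The cells came from male adult C57BL/6J mice, 5 to 6 weeks old, with no allele or treatment named and 50000 cells per library. Both libraries name the same donor entry, so separate animals are not stated, and sequencers are named for replicate 1 only. With 1 group, no difference between conditions can be tested, and every comparison below sets genes or regions against others within these libraries, with no p-value.

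Odorant receptors are the G protein-coupled receptors with which olfactory neurons detect odours, and each such neuron expresses a single receptor from a single allele. The receptors of class I, which resemble those of fish, form a single large cluster on mouse chromosome 7, and the beta-globin genes lie within it. The 188 genes were taken by symbol and position, so they need not all be of class I. Their class was not determined. Globin genes are switched on in the erythroid lineage by a locus control region made of DNase hypersensitive sites (HS), and CTCF, a zinc finger protein that anchors chromatin loops, binds on either side of the globin domain. In blood cells, odorant receptor genes are generally not expressed.

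Promoters of the Olfr genes were rarely accessible in MEP. A promoter counted as accessible when a region overlapped the window of 1 kb to either side of any protein-coding TSS of the gene. In the IDR-thresholded lists, the stricter lists of each library (IDR, the irreproducible discovery rate, measures how well peak ranks repeat), 3 of the 188 had a region in both libraries, or 1.60% (Wilson 95% interval 0.544 to 4.59), beside 45.7% of all protein-coding genes. The list of replicate 1 reached 5 of them, beside 47.7% of all genes, and that of replicate 2 reached 3, beside 47.9%. In the longer pseudoreplicated lists 6 had a region in both libraries, beside 56.5% of all genes. Replicate 1 alone reached 7 in its longer list, beside 58.4%, and replicate 2 reached 6, beside 58.6%. In the lists called on both libraries together, 7 Olfr genes had a region in the conservative list, beside 54.5% of all genes, and 11 in the longest list, called replicated, beside 62.4%. No region of any of the 6 lists reached the promoters of 177 of the 188, whereas 63% of all genes had one in at least 1 list. An absent call is not a measurement of closed chromatin, and the reads behind the lists are unknown.

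**Figure D1:**
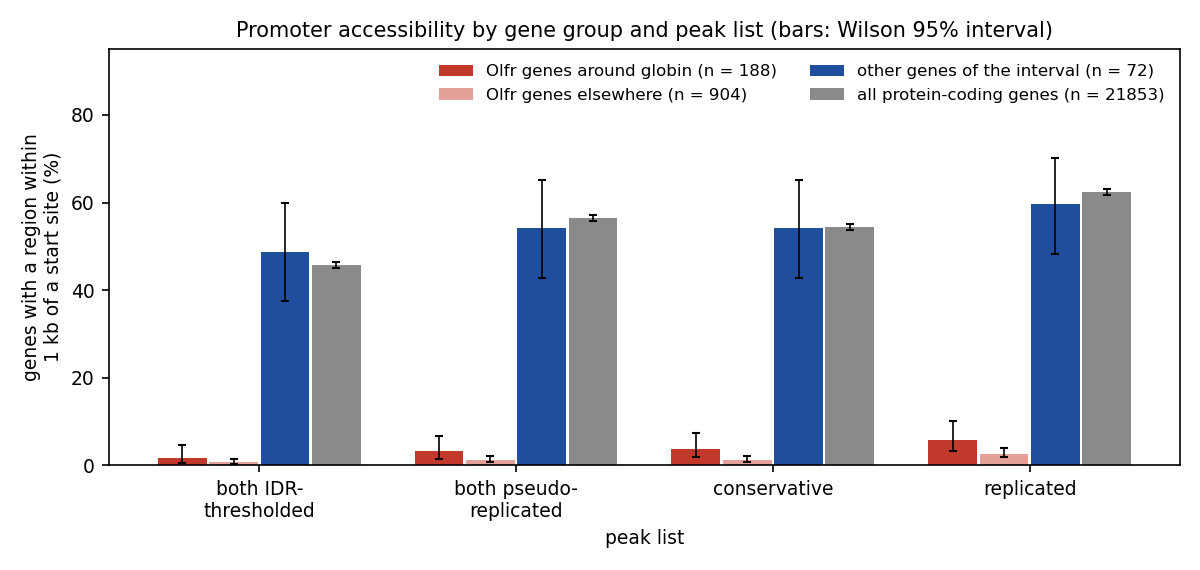
Percentage of genes (y axis) with a region within 1 kb of a start site in each peak list (x axis), for 4 gene groups. Bars give the share and lines the Wilson 95% interval over genes. The Olfr genes stay at 1.60 to 5.85% in the 4 lists, while the other genes of the same interval lie between 48.6 and 59.7%.

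The genes that lie between the Olfr genes differed from them. Of the 72 other protein-coding genes of the interval, the beta-globin genes included, 35 had an accessible promoter in both IDR-thresholded lists (48.6%, 37.4 to 59.9), close to the 45.7% of all genes. Olfr genes elsewhere in the genome had one in 6 of 904 cases (0.664%, 0.304 to 1.44), and the interval of the genes around globin (0.544 to 4.59) overlaps that range. In the longest list 24 of the 904 were reached (2.65%, 1.79 to 3.92), beside 5.85% (3.30 to 10.2) around globin. These intervals cover counting error over genes only, and neighbouring genes can share a region.

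The genes called in both strict lists were Olfr658, Olfr646 and Olfr68. The fold printed from here on is the authors' ratio for the strongest peak of a region, given for replicate 1 and then replicate 2. It is not scaled between libraries and serves to describe and rank regions only.

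Among the genes called in both strict lists, Olfr658 had the highest fold in each library, 14.4 and 15.4, with −log10 p values of 58.4 and 66.2. Its region at chr7:104646918-104647631 had its summit 17 bp from the start site, and it was the only one of the 3 centred there. RefSeq places the start of a pseudogene, Usp17le-ps, at 104647249 on the opposite strand, so the same region covers the start of this gene copy too. ATAC-seq does not tell the strands apart. The promoter window of Olfr658 had an observed over expected CpG ratio of 0.311, the highest of the 188 windows, and 65.0% of its 32-base words occurred at a single place in the genome, against a median of 96.3% over the 188. The 120 bases upstream of the annotated start, chr7:104647306-104647425 on the minus strand of GRCm38, are shown because they hold the 4 CpG dinucleotides, in capitals, beside the summit.
Olfr658 upstream: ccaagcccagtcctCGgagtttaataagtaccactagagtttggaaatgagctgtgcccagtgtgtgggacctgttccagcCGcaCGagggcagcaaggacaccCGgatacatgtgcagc

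Olfr646 had folds of 11.3 and 13.1, and its region, chr7:104103815-104104767, ended 106 bp short of the annotated start, with the summit 793 bp upstream. All 32-base words of that region were unique in the genome. The RefSeq model of Olfr646 begins further upstream, at 104097316, and spans the region, so by that annotation the region lies inside the gene rather than before it.

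Olfr68 had folds of 8.08 and 10.02, but the region, chr7:103777529-103778341, had its summit in the coding exon, 436 bp from the nearest annotated start of the gene and 1791 bp downstream of the most upstream start. Olfr69, the next receptor gene, had a region of the same kind in its coding exon (chr7:103767559-103768388, folds 6.83 and 7.39), 3627 bp from its start site and so outside its promoter window. These genes are close copies of each other. Of the 32-base words in the Olfr68 region, 36.3% were unique in the genome and 63.7% also occurred in the Olfr69 gene, and of those in the Olfr69 region 35.5% were unique and 64.5% occurred in Olfr68. How reads with several places were handled is not given in the sources used here, so the split of signal between the copies is uncertain.

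Another pair of copies, Olfr544 and Olfr545, showed the same layout. Olfr545 had a region over an inner start site and coding exon (folds 6.35 and 7.002, chr7:102494266-102494866) that entered the strict list of replicate 1 only. The region in the coding exon of Olfr544, chr7:102484668-102485090, had folds of 5.22 and 4.40 and entered neither. In the Olfr545 region 60.7% of the 32-base words also occurred in Olfr544, and in the Olfr544 region 76.3% also occurred in Olfr545. The 4 regions with a summit in an Olfr coding exon were thus all regions shared with a neighbouring copy, with 23.7 to 39.3% unique words, whereas the median over the 23 regions inside runs of Olfr genes was 100%. Leaving out regions with a coding exon summit left 2 promoters called in both strict lists, Olfr658 and Olfr646.

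Further calls were weaker. Olfr557 (7.10, 8.66) and Olfr552 (4.72, 5.30) had regions 353 and 212 bp from their start sites in both pseudoreplicated lists and in neither strict list. Olfr67 entered the strict list of replicate 1 only by an overlap of 3 bp between its promoter window and a region centred 1412 bp upstream, described below with the globin domain. In replicate 2 the same region began 167 bp further away and missed the window. Olfr543, Olfr571, Olfr609 and Olfr617 had a region in the replicated list alone, with pooled folds of 2.77 to 3.19 and summits 525 to 789 bp from the nearest start site of the gene.

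For the 3 receptor genes nearest to globin on each side, no region was centred on a start site. Below the globin genes, Olfr69, Olfr68 and Olfr67 start 42.4, 34.3 and 22.2 kb from the nearest globin TSS, and above them Olfr66, Olfr64 and Olfr65 start 33.0, 41.3 and 50.3 kb away. Olfr66, Olfr64, Olfr65 and Olfr69 had no promoter region in any list. Their nearest conservative regions lay 8539, 15057, 6055 and 3206 bp from the most upstream start site. Inner start sites of Olfr66 and Olfr65 were nearer, with a region summit 4960 and 3875 bp away. The region beyond Olfr67 began 986 bp from its start site, and the Olfr68 region lay beside an inner start site of that gene, as described above.

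Between these genes, the globin interval held 11 regions in 120 kb, and both libraries gave a fold for each. The strongest was 3'HS1, the hypersensitive site at the downstream end of the globin domain (14.8, 16.6). Its summit lay 34.9 kb downstream of the Hbb-bs start site and 1412 bp upstream of Olfr67. The promoter of Hbb-bs, an adult beta-globin gene, had folds of 9.58 and 9.67, and that of Hbb-bt, the other adult gene, had 3.47 and 3.91 and entered both pseudoreplicated lists but neither strict list. These globin genes are copies as well, and 57.7% of the words in the Hbb-bt region also occurred in Hbb-bs. Hbb-bh1 and Hbb-y, the embryonic genes, and Hbb-bh2 had no promoter region. In the locus control region, HS1 had folds of 8.90 and 9.36, HS2 7.93 and 7.33, HS3 5.64 and 6.14, and HS4 9.48 and 8.28. HS4 and the next region out, chr7:103877036-103877713 (7.79, 8.10), were nearer to the start of Olfr66 than to any globin start.

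**Figure D2:**
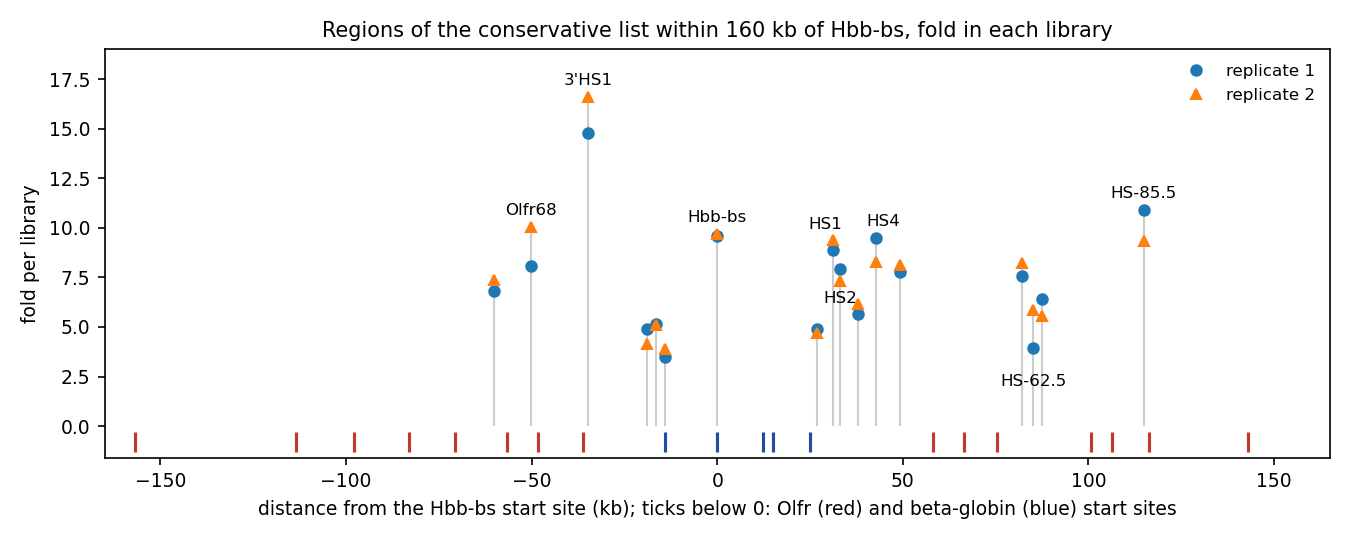
Fold per library (y axis) of each conservative region within 160 kb of the Hbb-bs start site (x axis, kb, increasing with the chromosome coordinate), circles for replicate 1 and triangles for replicate 2. Red ticks mark Olfr start sites and blue ticks beta-globin start sites. The 3'HS1 region, at 14.8 and 16.6, stands highest, and the Olfr start sites between 3'HS1 and HS-85.5 have no symbol above them.

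Regions at annotated boundary sites continued into the receptor genes. RefSeq annotates CTCF-binding sites at 3'HS1 and, further out, at HS-62.5 and HS-85.5. HS-62.5 lay beyond Olfr65 (chr7:103913065-103913429, folds 3.95 and 5.87) and had its summit 11 bp from the centre of the annotated site. HS-85.5 lay 1502 bp from the start of Olfr633 (chr7:103942808-103943079, folds 10.9 and 9.33, in the strict list of replicate 1 only) with the summit 14 bp from the centre. The annotated CTCF site of HS5 had no conservative region and had a region in the replicated list. The sites under a region are shown with 81 bases each, on the plus strand of GRCm38, with the annotated CTCF site in capitals. They are chr7:103793061-103793141, chr7:103913146-103913226 and chr7:103942909-103942989.
3'HS1: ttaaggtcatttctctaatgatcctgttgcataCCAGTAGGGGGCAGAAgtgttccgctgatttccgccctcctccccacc
HS-62.5: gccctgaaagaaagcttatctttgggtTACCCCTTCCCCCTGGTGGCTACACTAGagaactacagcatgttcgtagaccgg
HS-85.5: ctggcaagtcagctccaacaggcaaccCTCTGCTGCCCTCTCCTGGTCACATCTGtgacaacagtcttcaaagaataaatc

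The site at 3'HS1 held a full match to the 12-base CTCF core consensus, and those at HS-62.5 and HS-85.5 matched with 1 mismatch. At 3'HS1, however, the summit was 132 bp from the centre of the CTCF site. The summit stood inside an AGATAA, the sequence bound by GATA factors such as the erythroid regulator GATA1. The 120 bases around it (chr7:103793173-103793292, plus strand) carry that match in capitals. HS2 is shown beside it (chr7:103861016-103861112, plus strand) with the GATA-1 site and the tandem NF-E2 sites that RefSeq annotates in capitals. A match is a description of the letters and not evidence of binding in these cells.
3'HS1 summit: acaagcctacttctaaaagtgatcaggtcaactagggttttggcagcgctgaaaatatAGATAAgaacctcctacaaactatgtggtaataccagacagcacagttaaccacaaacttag
HS2: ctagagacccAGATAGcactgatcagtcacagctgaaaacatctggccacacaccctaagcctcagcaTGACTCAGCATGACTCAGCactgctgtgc

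The stretches of neighbouring receptor genes held few accessible regions of any kind. The Olfr genes of the interval formed 10 runs of at least 5 neighbouring genes, which hold 183 of the 188 genes in 3.50 Mb. The runs contained 23 regions of the conservative list, or 6.57 per Mb, and regions covered 0.325% of their length. The globin interval held 91.7 per Mb with 5.95% covered, the rest of the interval that bounds the Olfr genes 31.0 per Mb with 2.10% covered, and the genome 17.45 per Mb with 1.07% covered. The density within the runs was thus below that of the genome and that of the genes around them, with no spread to set it against because the list was called on both libraries together. In the strict list of each library the runs held 4.28 and 3.71 regions per Mb, against 9.95 and 10.6 in the genome. Masked repeats made up 44.8% of the runs and 40.2% of the rest of the interval. The part of repeats and base content in the density was not tested.

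**Figure D3:**
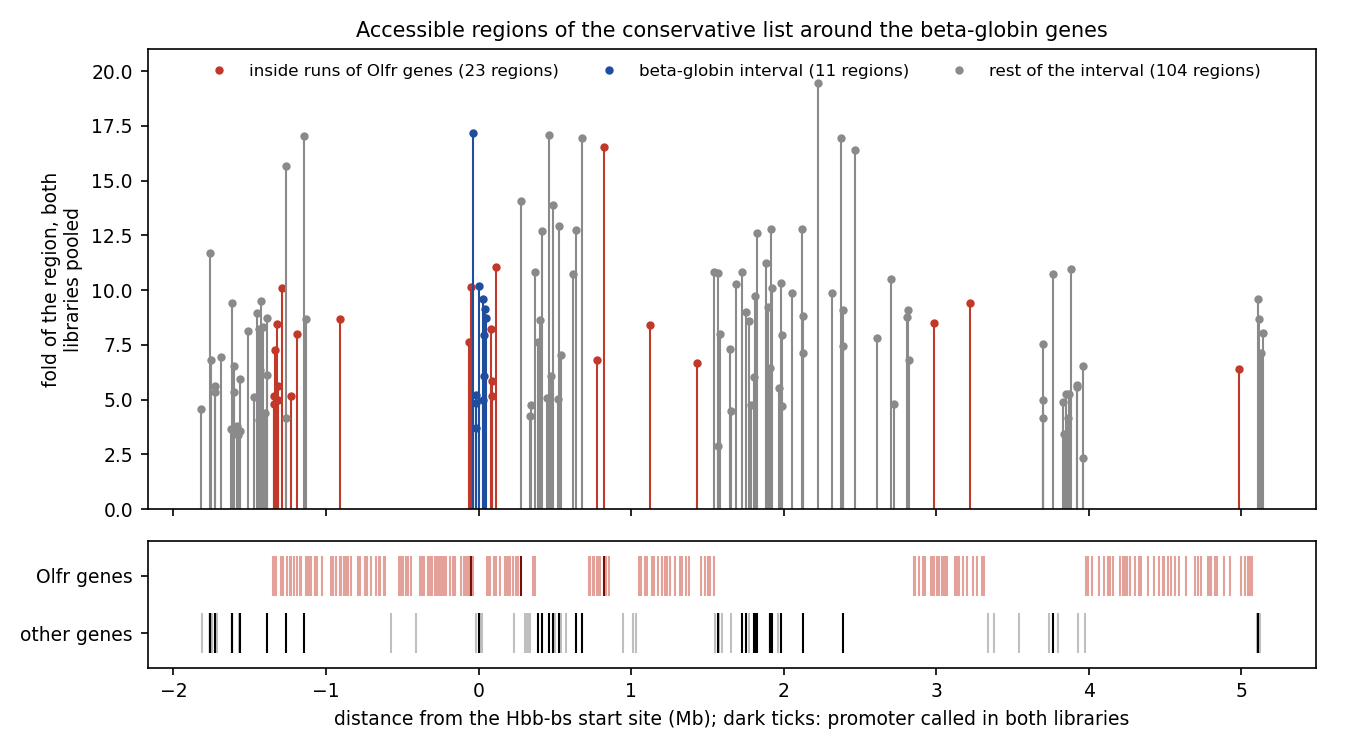
Fold of each conservative region called on both libraries (upper panel, y axis) by distance from the Hbb-bs start site (x axis, Mb), coloured by stretch, over ticks for the start sites of Olfr genes and of other genes (lower panel). The 23 regions inside Olfr runs are spread thinly, and long stretches of Olfr ticks have none above them.

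Long stretches of receptor genes had no region of the conservative list. The longest, 1026 kb from 107788741 to 108814889, held the start sites of 37 of the Olfr genes, from Olfr467 to Olfr513, and 1 other gene. The next, 847.6 kb from 102919968 to 103767558, held 45, from Olfr572 to Olfr630, and 2 other genes, and it ended at the Olfr69 region beside globin. In the replicated list, which has more regions, the same stretches were interrupted, and the longest empty pieces were 862.1 kb with 32 Olfr start sites and 572.2 kb with 27. The run of Olfr467 to Olfr519, 42 genes in 1.08 Mb, had a single conservative region, and the 7 genes of the run from Olfr596 to Olfr603 had none in any of the 4 lists counted.

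Regions were unevenly spread over the runs. The run from Olfr543 to Olfr549, the run farthest below globin, held 7 regions in 79.3 kb, or 88.3 per Mb. These included the Olfr544 and Olfr545 exon regions, 3 intergenic regions beyond Olfr545, and the promoter of Olfr548-ps1, whose symbol puts it outside the rule (8.32, 9.50). The run from Olfr66 to Olfr642, next to the locus control region, held 4 regions, or 23.1 per Mb. All 4 lay between the end of Olfr65 and the start of Olfr633. The others held 0 to 19.6 per Mb. Without the run from Olfr543 to Olfr549 the density was 4.67 per Mb.

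Of the 23 regions in the runs, 18 were distal, meaning more than 1 kb from any protein-coding start site, and 16 were intergenic. Both libraries gave a fold for 22 of them, with medians of 6.39 and 7.50, and replicate 1 had the higher fold in 5. Both strict lists held 10 of the 23. By mean fold, the strongest distal one was HS-85.5, and the next were chr7:107045793-107046179 near Olfr713 (7.83, 9.19) and chr7:103909542-103910609 near Olfr65 (7.56, 8.24). The region nearest the start of Olfr670, chr7:104950284-104950543 (6.12, 8.93), lay on the processed pseudogene Gm5900.

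Distances to the nearest conservative region were taken from the most upstream start site of each gene. For the Olfr genes around globin, the distance had a median of 63.6 kb. It exceeded 50 kb for 108 of the 188 (57.4%), beside 19.9% of all genes, whose median was 0.692 kb. Olfr genes elsewhere were farther still, with a median of 212.5 kb and 81.0% beyond 50 kb. A region within 10 kb was found for 27 of the 188 (14.4%), beside 65.3% of all genes.

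**Figure D4:**
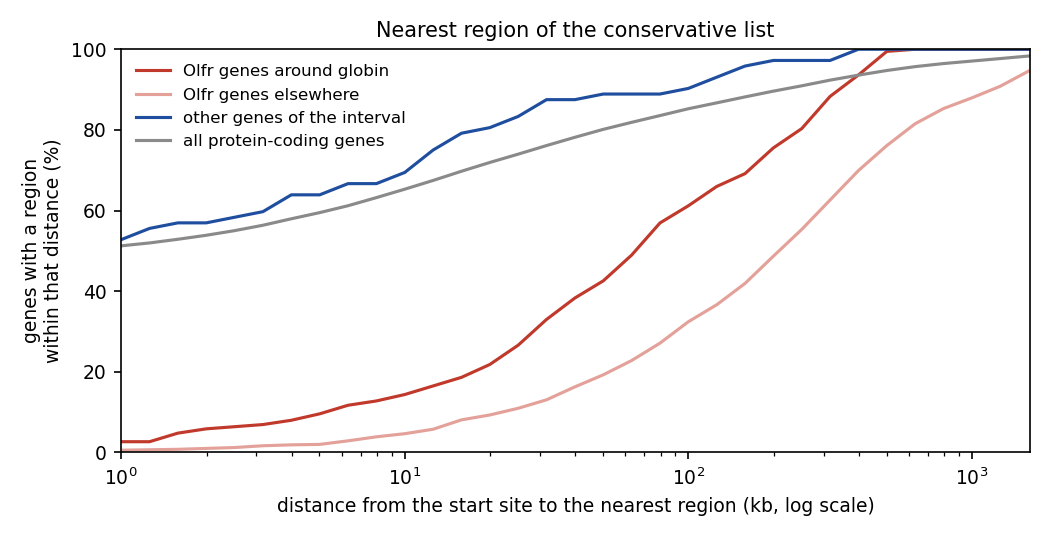
Percentage of genes (y axis) whose most upstream start site has a conservative region within a given distance (x axis, kb, log scale). Lines show the Olfr genes around globin, Olfr genes elsewhere, other genes of the interval and all genes. The Olfr genes around globin lie between the other Olfr genes and all genes over most of the axis, with medians of 63.6, 212.5 and 0.692 kb.

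The regions of the runs were searched for short consensus sequences in 300 bp around the summit, on both strands. The CTCF core consensus was found in 3 of 23 regions (13.0%), beside 11.7% of all conservative regions, and with up to 1 mismatch in 11 (47.8%), beside 36.1%. AGATAA was in 6 of 23 (26.1%), beside 27.1% of all regions, while in the globin interval it was in 8 of 11 (72.7%). TGAGTCA, the sequence bound by AP-1 and NF-E2 proteins, was in 1 of 23 in the runs (4.35%), in 4 of 11 in the globin interval (36.4%) and in 6.29% of all regions. In these small numbers, and with no test, the shares of the runs lay near those of all regions for AGATAA and TGAGTCA, and those of the globin interval lay above them.

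The full CTCF matches in the runs are shown because RefSeq annotates CTCF sites beside the globin domain too, with the match in capitals, on the plus strand of GRCm38. The region near Olfr554 (folds 6.37 and 7.62) had its match 29 bp from the summit and is shown over chr7:102636885-102636946. The region in an intron of Olfr701 (8.12, 7.35) had its summit inside the match and is shown over chr7:106815940-106816001. The only conservative region of the run of 42 genes, near Olfr514 (5.14, 6.30), had its match 8 bp from the summit and is shown over chr7:108814973-108815034.
region near Olfr554: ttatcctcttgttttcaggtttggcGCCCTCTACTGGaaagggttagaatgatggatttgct
region near Olfr701: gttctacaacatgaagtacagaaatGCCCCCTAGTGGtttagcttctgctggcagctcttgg
region near Olfr514: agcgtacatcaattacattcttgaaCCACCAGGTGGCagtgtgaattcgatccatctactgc

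The promoter windows of the receptor genes shared a base content that sets them apart from most called promoters. Their GC content had a median of 37.7%, beside 51.3% over all genes. The observed over expected CpG ratio had a median of 0.104 and a highest value of 0.311, and none of the 188 exceeded 0.6, beside 34.3% of all genes. The 904 Olfr genes elsewhere were much alike, with medians of 35.9% GC and a CpG ratio of 0.1105, and 0 exceeded 0.6. Genes called in both strict lists had a median CpG ratio of 0.626 and those not called 0.243. Low ratios also occurred at called promoters of the interval, with 0.0486 at Trim30a, 0.0676 at Trim30d and 0.0855 at Hbb-bs. The other genes of the interval had a median of 0.223.

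**Figure D5:**
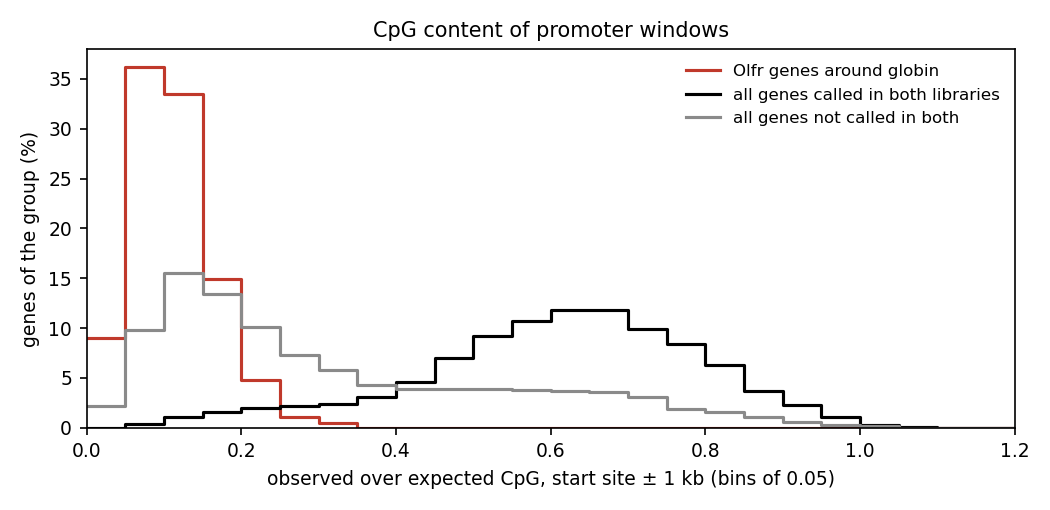
Percentage of genes of each group (y axis) by observed over expected CpG within 1 kb of the start site (x axis, bins of 0.05). The 188 Olfr genes have a median of 0.104 and end at 0.311, while genes called in both strict lists have a median of 0.626.

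Most Olfr promoter windows were largely unique sequence. The share of unique 32-base words had a median of 96.3% over the 188 and 98.7% over the other genes of the interval. It was over 90% in 122 of the 188 and under 50% in 1. These windows, and those for GC and CpG, surround the most upstream start site of each gene, while a call could come from any start site. The Olfr68 call came from such an inner start site, in the region with 36.3% unique words. AGATAA was in 85.6% of the Olfr windows and 57.9% of all windows of the same 2001 bp. Olfr genes elsewhere had it in 87.9%, so the share was not particular to the genes around globin.

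Among the other genes of the interval, the strongest promoters were those of Trim genes, which encode tripartite motif proteins, several of them antiviral. Trim68 had folds of 16.1 and 15.8, Trim5 15.9 and 15.6, Trim30d 14.95 and 15.5, and Trim21, an antibody receptor of the cytosol, 14.6 and 15.1. Of the 13 Trim genes, 10 had an accessible promoter in both strict lists (76.9%, 49.7 to 91.8), beside 45.7% of all genes. Trim21 lies between runs of Olfr genes, 9.64 kb beyond the end of Olfr549 and 5.96 kb before Olfr550, and Trim68 stands 8.58 kb before Olfr557. The Trim68 region had a higher fold than any Olfr promoter of the interval in both libraries. Trim5 and Trim12a share sequence with copies (42.6 and 50.3% unique words), so the division of signal among those copies is uncertain. Trim21 and Trim68 were 100 and 98.0% unique. Taf10, a general transcription factor subunit, had 11.8 and 12.7.

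Genes that serve odorant receptors fell into 2 lists. All lie outside the interval except Cnga4, which is also counted among its other genes. In the list of odorant signalling, 1 of 15 promoters was called in both strict lists, beside 45.7% of all genes. This was Ric8b, a chaperone of G protein alpha subunits (11, 12.1). In both pseudoreplicated lists 5 were called, beside 56.5% of all genes. Among them were Cngb1 (4.95, 5.44), Omp, the olfactory marker protein (4.96, 4.68), and Adcy3, the adenylyl cyclase of odour signalling (3.84, 4.99). Cnga2, Cnga4, Ano2 and Gng13 had no region in either pseudoreplicated list. The other list holds genes named for receptor choice and the silencing of receptor genes. Of its 15 promoters, 11 were called in both strict lists, beside 45.7% of all genes. They include the transcription factor genes Ebf1 (9.94, 11.2) and Ebf2 (9.15, 10.2), the histone methyltransferase genes Ehmt1 (9.51, 8.59) and Setdb1 (7.76, 6.64), the lamin B receptor gene Lbr (8.99, 8.86), the heterochromatin protein gene Cbx5 (7.21, 9.06), Atf5 (7.87, 8.94) and the demethylase gene Kdm1a (7.16, 8.26). Most of these act in many tissues. Lhx2, a homeodomain factor that receptor choice needs, was called in both pseudoreplicated lists and in neither strict list (5, 4.66), and Emx2 in none of these.

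Over the whole series, the strict lists held 26353 and 28142 regions, the conservative list 46200 and the replicated list 83876. As a check of the cell label, 8 of 10 MEP markers had an accessible promoter in both strict lists, beside 45.7% of all genes, and all 10 in both pseudoreplicated lists, beside 56.5%. The counts for other cells in both strict lists were 0 of 6 for granulocytes and macrophages, 1 of 4 for B cells (Pax5), 0 of 4 for T and NK cells and 0 of 6 for olfactory neurons. In both pseudoreplicated lists they were 0, 1, 0 and 2, beside 56.5% of all genes. In any of the 6 lists they were 3, 1, 0 and 3, beside 63% of all genes. The olfactory neuron markers are all in the list of odorant signalling as well, so they are not a separate check. The strict lists were compared over the interval that bounds the Olfr genes. Regions of replicate 1 were overlapped by one of replicate 2 in 78 of 88 cases (88.6%, 80.3 to 93.7). In the reverse direction it was 76 of 92 (82.6%, 73.6 to 89.0), beside 86.2 and 80.7% in the genome. Within the Olfr runs the counts were 10 of 15 (66.7%, 41.7 to 84.8) and 10 of 13 (76.9%, 49.7 to 91.8). Within the globin interval they were 10 of 10 and 9 of 9. Every region of the strict list of replicate 1 in the runs overlapped the longer list of replicate 2, and the reverse also held.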

How the data were processed

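Accessible chromatin was measured by ATAC-seq in 2 libraries of MEP. The authors deposited peak lists on mm10, per the read-me texts, made from filtered alignments and a file of regions. The deposited ratio column is a fold per peak and the deposited −log10 p column its significance, both read from the values and their place in the layout. The sources used here do not name the aligner, the peak caller or how the transposase offset was treated, and the depth is unknown. Of the deposited lists, 6 were used: an IDR-thresholded and a pseudoreplicated list per library, and a conservative and a replicated list called on both.

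Overlapping or touching peaks were merged into regions carrying the fold and summit of their strongest peak. Gene models came from GENCODE release 21 for mouse, sequence was GRCm38.p6, and functional elements were those of RefSeq. Runs were stretches of at least 5 neighbouring Olfr genes, and a region belonged to the stretch holding its summit. Unique 32-base words were those found at 1 place of the 21 main chromosomes. Motifs were the CTCF core consensus, AGATAA of GATA factors, TGAGTCA of AP-1, the EBF consensus and the homeodomain core TAATTA, on both strands. The last 2 were in 0 and 1 of the 23 regions in runs, beside 0.671 and 4.41% of all conservative regions. Wilson 95% intervals cover counting error only. With 1 group no test between conditions was possible. Python 3.11.15, numpy 2.4.6 and pandas 2.3.3 were used, and the counting was tested on simulated data.

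The Olfr genes, the lists and the alternatives were chosen with earlier results of these data known. Named genes were the 3 Olfr genes next to globin on each side, the beta-globin genes, Olfr genes called in both strict lists and up to 10 more by fold, up to 10 other genes of the interval by fold, the 10 strongest distal regions and the 5 regions next to globin on each side, and up to 8 genes of each list. Other genes named were chosen after their values were seen.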

Additional observations from a re-analysis of the deposited data

How the results depend on the processing

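Across 42 alternatives, 29 left a count within 1.5 times, or a share within its interval. The number of Olfr promoters called, 3, became 6 with the pseudoreplicated lists, 7 with the conservative list, 11 with the replicated list and 5 with a window of 2 kb, and without replicate 1 or 2 it ranged from 3 to 5. Without replicate 2 it was 5, Olfr67 and Olfr545 being the genes added. The density in Olfr runs, 6.57 per Mb, became 11.4 with the replicated list, 4.28 when regions below the median fold were dropped and 4.32 with runs of at least 10 genes. With the strict list of a single library, without replicate 1 or 2, it ranged from 3.71 to 4.28, where those lists also hold fewer regions in all. The 11 globin regions became 6 by the same fold limit. Recurrence rose from 88.6 to 100% and from 82.6 to 97.8% against the pseudoreplicated list of the other library, and the cause of these changes beyond list length was not tested. The count for the other genes of the interval ranged from 29 to 43. No paired analysis was possible because there is a single group. Read depth sets which weak regions were called, and it is unknown.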

Other observations

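Annotated genes of the interval that make no protein were counted too. The share over all such genes of the genome was not computed, so the counts cannot be called low or usual. Of all protein-coding genes, 45.7% were called in both strict lists. None of 39 Olfr pseudogenes (0 of 39) had a region of both strict lists at its start, and 1, Olfr647-ps1, had one in both pseudoreplicated lists (4.06, 4.09). Of 15 long noncoding RNA genes, 2 were called in both strict lists. These were Gm15133, which shares its region with Trim12a (13.0, 13.3), and Gm45885, which shares its region with Fam160a2 (10.1, 11.2). Among 70 other pseudogenes the only one was Gm5900 (6.12, 8.93), inside the run from Olfr665 to Olfr692. Its region had 47.6% unique words.

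The distal region of highest fold in the interval that bounds the Olfr genes lay at chr7:106054797-106055666, 101318 bp from the nearest protein-coding start, Gm4070 (16.7, 16.8), in the stretch of Gvin genes, interferon-inducible GTPases, between Olfr runs. Others of similar fold were in an intron of Gvin1 (13.7, 16.5) and at chr7:106296645-106297561 (13.2, 15.8). In the same stretch, a region in an intron of Gm4070 had folds of 10.8 and 12.1. These 4 regions lie in near-identical copies, with 7.63 to 11.1% of their 32-base words unique in the genome, so their signal cannot be assigned to a single copy. Among the strongest 10, 3'HS1 had the highest mean fold of the regions with 100% unique words. Further distal regions among the strongest 10 were in an intron of Ppfibp2 (10.4, 10.8), in a coding exon of Dnhd1 (10.4, 10.7), in Fam160a2 (9.85, 10.2) and 4080 bp from the start of Olfr649 (11.1, 8.93).

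Olfr genes elsewhere that were called in both strict lists were few. Olfr420 (7.04, 7.73), Olfr417 (5.35, 7.54) and Olfr414 (4.95, 6.06) lie on chromosome 1, where 3 of 27 were called. Olfr9 on chromosome 10 (8.67, 9.44), Olfr56 on chromosome 11 (5.84, 5.71) and Olfr373 on chromosome 8 (8.54, 11.2) were the others. On chromosome 2, which holds 280 Olfr genes, 0 were called, and on chromosome 9 it was 0 of 129. The remaining 47 Olfr genes of chromosome 7 had none.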
